A study of Mus musculus with 14 samples.

Results

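The regions described here are places on the mouse autosomes where a peak of histone H3 lysine 4 monomethylation (H3K4me1) was called after both ways of interfering with Mll1 but not in untreated cells. A region was taken when a peak of the 4-OHT H3K4me1 list on the 19 autosomes overlapped no untreated H3K4me1 peak and overlapped an MM-401 H3K4me1 peak by at least 1 bp. The rule gave 1844 regions, which is 1.58% of the 116436 autosomal 4-OHT peaks and 9.70% of the 19007 that overlapped no untreated peak. The regions were selected on the presence or absence of peaks in the 3 H3K4me1 lists, so H3K4me1 values are a description only. Position, H3K4me2, H3K4me3, Mll1 and promoter sequence were not used in the choice. The number depends on the lists: with the 3 H3K4me1 lists taken at the equal length of 80675 peaks by score it was 5319, and with treated peaks of a score of at least 100 only it was 243.

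The study mapped chromatin by immunoprecipitation and sequencing in mouse embryonic stem cells derived from blastocysts of C57BL/6J background. All groups carried floxed Mll1 alleles (Mll1fl/fl) and the tamoxifen-inducible recombinase Cre-ER TM, the untreated controls included. Cells grew without feeders on Matrigel in KO DMEM with LIF, 5% serum and 15% serum replacement (KSR). They were left untreated, or were grown for 9 days and 3 passages with 100 µM of MM-401, an inhibitor of MLL1, or with 4-hydroxytamoxifen (4-OHT) at 5 µM, which activates the recombinase to delete Mll1. Fixation was in 1% paraformaldehyde over 10 minutes. Each precipitation used 2 µg of an antibody to a histone mark, or 4 µg of one to Mll1. Each mark and condition was 1 library, so nothing here has a replicate check and no test across samples was possible. 4-OHT without the floxed alleles was not analysed here.

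MLL1, encoded by Kmt2a, is an enzyme that transfers methyl groups to lysine 4 of histone H3. Monomethylation of that lysine is typical of enhancers and of the shoulders of active gene starts, trimethylation (H3K4me3) of the starts themselves, and dimethylation (H3K4me2) of both. A monomethylated stretch that lacks the other forms is typical of weak or primed enhancers in stem cells.

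Filtered tags, counted in M (1000000 tags), ranged from 12.9 M to 61.8 M over the 9 mark libraries. For H3K4me1 the untreated, MM-401 and 4-OHT libraries held 36.9 M, 22.2 M and 61.8 M. The MM-401 libraries held 49.5% to 60.3% of the untreated tags for the same mark, and the 4-OHT libraries 105% to 167%. The file headers place the MM-401 libraries in another processing folder than the rest. Their tags were 57 to 60 bp long, against 50 to 51 bp in the other mark libraries. Their fragments were 208 to 293 bp, against 179 to 197 bp. The MM-401 input held 12.2 M tags, against 36.6 M untreated and 55.0 M with 4-OHT. The folder, these differences, the lower depth and MM-401 cannot be told apart. H3K4me3 lay at the start of all 5 stem cell markers (Pou5f1, Sox2, Nanog, Zfp42 and Esrrb) in every condition, with 664 tags per M summed in untreated cells, 879 after MM-401 and 797 after 4-OHT. Of the 5 fibroblast markers 2 had H3K4me3 in every condition and Col3a1, Dcn and Lum had none, and the summed level of the list was 27.3, 19.7 and 28.7 tags per M. H3K4me3 also lay at 3 of 3 neural markers (137 to 141 tags per M summed), 2 of 4 of primitive endoderm (129 to 145), 2 of 3 of trophectoderm (97.2 to 106) and 2 of 3 of blood (14.9 to 17.6), and their part in the results was not tested. At the start of Kmt2a itself H3K4me3 was 107 tags per M in untreated cells, 118 after MM-401 and 107 after 4-OHT, which does not test whether its exons were deleted.

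The starts of genes that fell inside the regions were of unlike kinds, and their sequences show it. Start sites and sequences came from the RefSeq promoter table of GRCm38.p6, which lists 76 start sites of 66 protein-coding genes inside the regions; Meg3 is noncoding and is not among them. Each sequence below is the 250 bases before the start site, 5′ to 3′ on the gene's strand, with every CG dinucleotide in capitals. They were chosen after their values were seen, to set starts with strong H3K4me3 in all 3 conditions beside starts with no H3K4me2 or H3K4me3 peak, and beside Meg3, where H3K4me3 differed between the conditions. Tcf7l2, a transcription factor of the Wnt pathway, is at chr19:55741560-55741809 on the plus strand. Prpf39, a splicing factor, is at chr12:65036084-65036333 on the plus strand. Gsta3, a glutathione transferase, is at chr1:21240335-21240584 on the plus strand. Grm8, a glutamate receptor, is at chr6:28126427-28126676 on the minus strand. Meg3, a long noncoding RNA of an imprinted cluster, is at chr12:109540746-109540995 on the plus strand.
Tcf7l2: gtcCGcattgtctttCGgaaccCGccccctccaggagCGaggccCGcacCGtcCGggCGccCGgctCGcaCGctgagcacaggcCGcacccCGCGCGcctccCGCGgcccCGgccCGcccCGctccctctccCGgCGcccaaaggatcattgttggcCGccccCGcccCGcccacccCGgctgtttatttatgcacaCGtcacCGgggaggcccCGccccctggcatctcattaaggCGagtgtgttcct
Prpf39: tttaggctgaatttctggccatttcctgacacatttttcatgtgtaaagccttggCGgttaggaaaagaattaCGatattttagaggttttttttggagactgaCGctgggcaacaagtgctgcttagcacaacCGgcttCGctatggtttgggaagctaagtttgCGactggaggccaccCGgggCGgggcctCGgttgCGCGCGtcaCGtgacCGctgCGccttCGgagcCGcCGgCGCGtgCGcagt
Gsta3: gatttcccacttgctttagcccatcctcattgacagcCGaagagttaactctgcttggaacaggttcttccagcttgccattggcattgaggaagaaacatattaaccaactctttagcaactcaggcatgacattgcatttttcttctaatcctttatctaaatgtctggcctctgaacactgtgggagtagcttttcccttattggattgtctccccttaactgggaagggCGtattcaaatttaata
Grm8: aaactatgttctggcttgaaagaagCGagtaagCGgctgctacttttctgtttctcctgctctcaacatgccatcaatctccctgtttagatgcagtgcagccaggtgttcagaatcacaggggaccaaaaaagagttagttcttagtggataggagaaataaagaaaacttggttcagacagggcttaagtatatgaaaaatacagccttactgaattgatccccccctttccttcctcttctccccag
Meg3: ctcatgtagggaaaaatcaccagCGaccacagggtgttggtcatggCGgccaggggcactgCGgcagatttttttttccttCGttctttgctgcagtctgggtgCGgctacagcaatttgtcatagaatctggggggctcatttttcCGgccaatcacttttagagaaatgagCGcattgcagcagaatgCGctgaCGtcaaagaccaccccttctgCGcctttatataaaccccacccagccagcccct

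The stretch before Tcf7l2 held 30 CG and that before Prpf39 held 21, against 2 each for Gsta3 and Grm8 and 10 for Meg3. H3K4me3 at the peak over the Tcf7l2 start was 105 tags per M in untreated cells, 95.8 after MM-401 and 98.7 after 4-OHT. At Prpf39 it was 57.2, 71.6 and 56.9. No H3K4me2 or H3K4me3 peak touched the Gsta3 or Grm8 region in any of the 6 libraries. So the gained H3K4me1 peak at Tcf7l2 and Prpf39 lay within a start that carried H3K4me3 throughout, and at Gsta3 and Grm8 it was the only H3K4 mark called. The Tcf7l2 region of 1063 bp lay only 36 bp from an untreated H3K4me1 peak, and its MM-401 partner was 3134 bp wide.

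The 76 start sites ranged between these examples. The 49 start sites, of 40 genes, with H3K4me3 at the region in all 3 conditions had a median of 11 CG in the 250 bases, and 27 of them (55.1%) had 10 or more, near the 51.3% of all start sites, while 22 had fewer. The 13 start sites with neither mark in any condition had a median of 2, and 0 of them had 10 or more, and by the limit of 3 counts a count of 0 allows a share of up to 23.1%. The remaining 14 had a median of 5. Over all 76 start sites the median was 7.5 CG, against 10 for the 20085 autosomal start sites, 12 for those in 4-OHT peaks that overlapped an untreated peak and 5 for those in peaks gained after 4-OHT only. The motif GGGCGG, the core of the site of Sp1-type factors, was found on either strand in 40.8% of the 76 stretches and in 43.4% of all. The motif TATAAA was found on either strand in 13.2% and in 11.7% of all, and the Meg3 stretch holds it on both strands in overlapping positions. Both shares lay near those of all promoters.

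Most of the regions were far from gene starts. A region counted as at a start when it came within 1 kb of a listed start site of a protein-coding gene, or of either end of a gene without a listed start, then as in a gene body, then as between genes. By this rule 158 regions were at a start, or 8.57% (95% interval 7.33% to 9.94%), and 110 of these were at a listed start site. Gene bodies held 858 (46.5%) and the space between genes 828 (44.9%). Over all 4-OHT H3K4me1 peaks the shares were 19.2%, 43.8% and 37.0%. Peaks gained after 4-OHT only had 3.28% at starts (3.02% to 3.56%), 56.1% in bodies and 40.6% between genes, so the regions shared with MM-401 were more often at starts than these and less often in bodies. The intervals here and below are exact and cover counting error only. The share at starts moved with the definition. It was 17.6% with a window of 5 kb, 18.7% with H3K4me1 lists of equal length, 15.2% with all annotated genes, and 4.52% when peaks with an untreated peak within 1 kb were also removed. The shares of the other sets were not recomputed under these definitions. The median gap to the nearest gene start was 31585.5 bp, against 19045.5 bp for all 4-OHT peaks and 29446 bp for those gained after 4-OHT only.

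The regions were small and weak by the standards of the list they came from. Their median width was 1412 bp (quartiles 1180 and 1750.5 bp), with a median of 102 tags, 1.65 tags per M and a caller's score of 126. The score is −10 times the log10 of the caller's p, as the authors deposited it. 4-OHT peaks that overlapped an untreated peak had a median width of 2179 bp, 224 tags and a score of 425. Peaks gained after 4-OHT only had 1238 bp, 79 tags and a score of 82.6. In the MM-401 library the 1841 partner peaks had a median width of 1279 bp, 45 tags and a score of 69.5, close to the lowest score of 50 that the authors' threshold allows. Per kb the regions held a median of 1.15 tags per M, and 351 of them held more than 1.35, the lower quartile of the untreated list. Tags outside called peaks were not analysed here, so a region without an untreated peak is not shown to lack the mark in untreated cells.

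The overlap with MM-401 peaks was mostly extensive. At the median 82.6% of a region's width was covered by MM-401 peaks, 1651 regions (89.5%) were covered over at least 50% of their width and 262 were covered whole. For 1698 regions (92.1%) the MM-401 partner itself overlapped no untreated peak, and 149 partners overlapped one elsewhere. At the edge of the rule, the smallest overlap was 1 bp at a region nearest Ccnjl, and 38 regions overlapped by under 100 bp. The nearest peak left out had a gap of 1 bp to an MM-401 peak, at Gm7030. On the untreated side the closest region lay 1 bp from an untreated peak, at Pdcd6ip, and 69 lay within 100 bp of one. The smallest untreated overlaps left out were 6 bp, at Cpn2 and Cux2.

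Part of the regions lay beside H3K4me1 peaks that untreated cells already had. The median gap to the nearest untreated H3K4me1 peak was 3397.5 bp, against 4026 bp for peaks gained after 4-OHT only. Of the 1844, 450 (24.4%) lay up to 1 kb from one, 618 (33.5%) 1 to 5 kb away, 628 (34.1%) 5 to 50 kb away and 148 (8.03%) over 50 kb away. For peaks gained after 4-OHT only these shares were 17.6%, 38.1%, 36.9% and 7.35%. Regions up to 1 kb from an untreated peak were at gene starts in 21.1% of cases and had untreated H3K4me3 in 27.1%. Regions over 5 kb away had 5.03% and 12.9%.

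**Figure D1:**
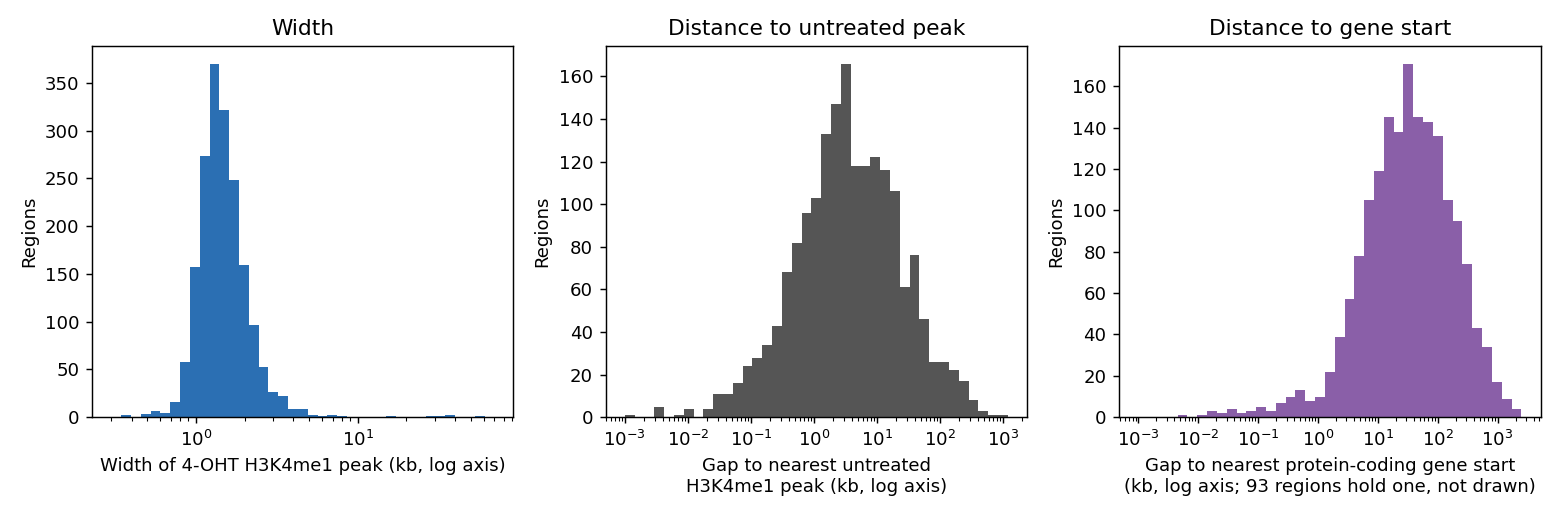
Histograms of the 1844 regions on log axes: the width of the 4-OHT peak in kb, the gap to the nearest untreated H3K4me1 peak in kb, and the gap to the nearest protein-coding gene start in kb, with 93 regions that hold a start not drawn. Most widths lie near the median of 1412 bp with 6 regions of 10 kb or wider far to the right, and the gaps are spread around medians of 3397.5 bp and 31585.5 bp.

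H3K4me2 peaks were found at 441 regions in untreated cells (23.9%, 22.0% to 25.9%), at 367 after MM-401 (19.9%, 18.1% to 21.8%) and at 666 after 4-OHT (36.1%, 33.9% to 38.4%). Over all 4-OHT H3K4me1 peaks these shares were 62.8%, 47.3% and 68.7%, so the regions carried H3K4me2 less often than the list as a whole in every condition. Peaks gained after 4-OHT only had 18.6%, 8.30% and 26.7%. The order of the conditions went with the depth of the libraries and with the length of their lists. When the 3 H3K4me2 lists were taken at equal length by score, the shares at the regions were 16.1% in untreated cells, 19.9% after MM-401 and 17.9% after 4-OHT, and the 4-OHT library no longer stood highest. When instead the H3K4me1 lists that choose the regions were of equal length, the shares were 47.8%, 41.1% and 66.7%, and the H3K4me3 shares were 34.6%, 27.1% and 35.7%. With treated H3K4me1 peaks of a score of at least 100 only, the H3K4me2 shares were 23.9%, 28.8% and 45.3%. MM-401 stood below untreated cells in the lists as deposited but above them with equal H3K4me2 lists and at this score.

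H3K4me3 peaks were found at 296 regions in untreated cells (16.1%, 14.4% to 17.8%), at 224 after MM-401 (12.1%, 10.7% to 13.7%) and at 311 after 4-OHT (16.9%, 15.2% to 18.7%). Over all 4-OHT H3K4me1 peaks the shares were 39.3%, 27.9% and 40.3%. Peaks gained after 4-OHT only had 10.9%, 5.79% and 11.5%. At equal list length the shares at the regions were 11.0% in untreated cells, 12.1% after MM-401 and 11.3% after 4-OHT. In the lists as deposited the shares of untreated and 4-OHT cells were close. In no condition did an H3K4me3 peak touch 1508 regions (81.8%; all peaks 57.4%).

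**Figure D2:**
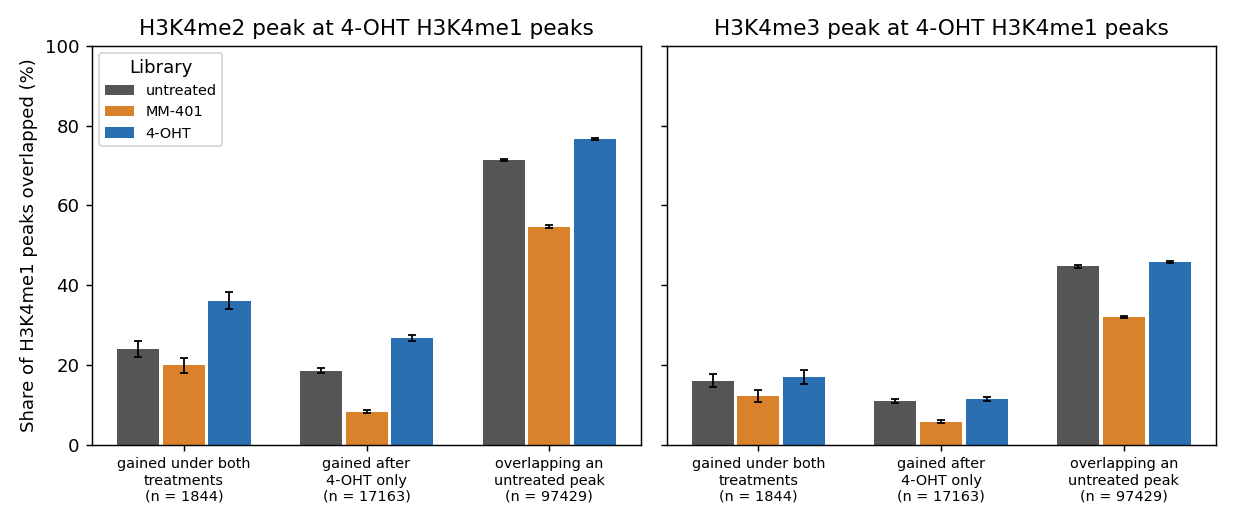
Share in percent of 4-OHT H3K4me1 peaks overlapped by an H3K4me2 peak (left) or an H3K4me3 peak (right) of the untreated, MM-401 and 4-OHT libraries, for the 1844 regions, 17163 peaks gained after 4-OHT only and 97429 peaks overlapping an untreated peak, with exact 95% intervals for counting error. The regions reach 36.1% for H3K4me2 after 4-OHT, above the peaks gained after 4-OHT only and below the peaks that overlap an untreated one.

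The marks were more frequent at gene starts than elsewhere in every condition. At gene starts 74.1% of the 158 regions had H3K4me2 in untreated cells, 69.6% after MM-401 and 79.1% after 4-OHT, and 68.4%, 63.9% and 66.5% had H3K4me3. In gene bodies H3K4me2 was at 16.7%, 12.1% and 33.2% of 858 regions and H3K4me3 at 9.32%, 5.71% and 10.8%. Between genes H3K4me2 was at 21.9%, 18.5% and 30.9% of 828 regions and H3K4me3 at 13.0%, 8.94% and 13.6%. Both other sets of 4-OHT peaks also had the marks most often at starts, so this is no trait of the regions. Among peaks gained after 4-OHT only, untreated H3K4me2 was found for 52.9% at starts and 13.4% in bodies. Among peaks that overlapped an untreated peak it was found for 97.0% and 63.6%. For H3K4me2 the untreated and 4-OHT intervals did not overlap in gene bodies (14.2% to 19.3% and 30.1% to 36.5%) or between genes (19.1% to 24.8% and 27.8% to 34.2%), and they overlapped at starts. All these shares are from the lists as deposited. Over all the regions equal list length brought the H3K4me2 shares to 16.1% untreated and 17.9% after 4-OHT.

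Counted region by region, 1143 (62.0%) had neither H3K4me2 nor H3K4me3 in any condition, against 28.4% of all 4-OHT peaks and 72.1% of those gained after 4-OHT only. Another 217 (11.8%) had both marks in all 3 conditions, against 27.7% of all. For marks absent in untreated cells the bases were unlike. Untreated H3K4me2 was at 23.9% of the regions and 62.8% of all 4-OHT peaks, and untreated H3K4me3 at 16.1% and 39.3%. A smaller part of all peaks could thus count below, so a higher share at the regions does not by itself show an excess. H3K4me2 was present after 4-OHT only at 218 regions (11.8%; all peaks 7.84%). Of the 218, 141 were in gene bodies, where 858 of the 1844 regions lay. The same share over all 4-OHT peaks was not counted, so no trait of the regions can be read from it. The H3K4me2 peaks at the 218 were small, with a median of 1.09 tags per M and a width of 960 bp. H3K4me3 was present after 4-OHT only at 37 (2.01%; all peaks 3.20%). H3K4me2 after MM-401 only was found at 16 regions (0.868%; all peaks 0.264%). H3K4me3 after MM-401 only was found at 2 regions (0.108%; all peaks 0.0369%), nearest Gm10323 and Rhou, both named here after their values were seen. H3K4me2 in both treatments and not in untreated cells was found at 25 regions (1.36%, 0.879% to 1.99%), against 0.662% of all 4-OHT peaks and 0.175% of those gained after 4-OHT only. Over all peaks that was 771 of 116436, of which 73122 had untreated H3K4me2, as had 441 of the 1844 regions. The interval therefore does not show an excess at the regions. H3K4me3 in both treatments and not in untreated cells was found at 1 region (0.0542%; all peaks 0.0704%). The treated libraries share 1 untreated library as their control in these counts.

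Where a mark was called in all 3 conditions its level was much alike. For H3K4me2 at 325 regions (17.6%; all peaks 46.2%) the median was 4.77 tags per M in untreated cells, 5.35 after MM-401 and 4.82 after 4-OHT, with median log2 ratios of 0.18 and −0.03 to untreated. It was at least 1.5-fold higher at 38 regions and lower at 21 after MM-401, which is 11.7% and 6.46% beside 6.17% and 9.43% of all 4-OHT peaks. After 4-OHT it was higher at 9 and lower at 9, or 2.77% each, beside 7.82% and 3.15%. For H3K4me3 at 218 regions (11.8%; all peaks 27.7%) the lowest, median and highest values were 0.831, 13.6 and 217 tags per M untreated, 1.16, 15.4 and 371 with MM-401, and 0.757, 14.3 and 350 with 4-OHT. It was at least 1.5-fold higher at 14 and lower at 26 after MM-401 (6.42% and 11.9%, beside 1.93% and 17.2% of all), and higher at 11 and lower at 8 after 4-OHT (5.05% and 3.67%, beside 4.87% and 2.12%). Tags are summed over the whole of every mark peak that touches a region, so a change can lie beside the region.

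**Figure D3:**
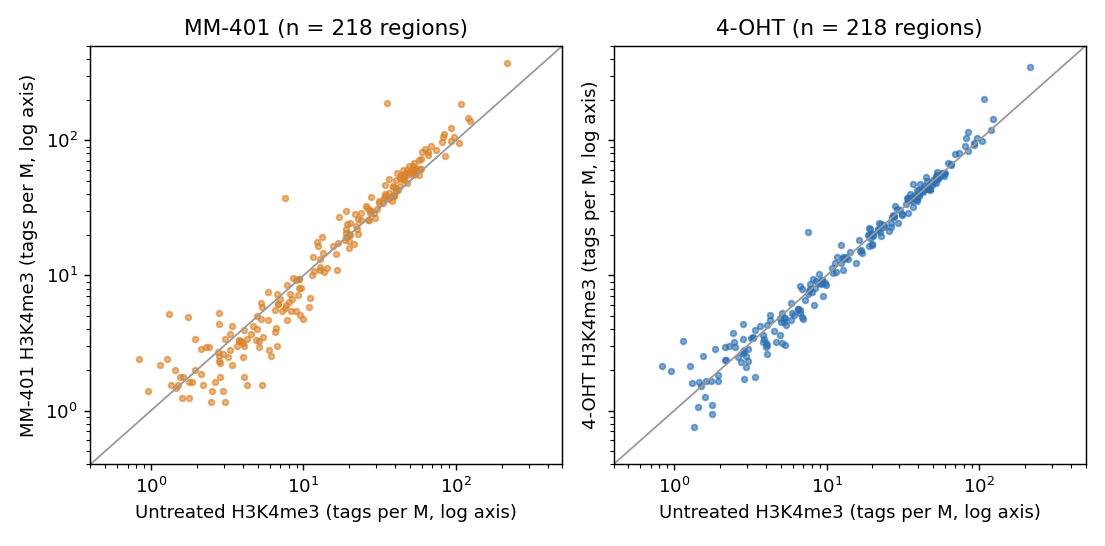
H3K4me3 in tags per M on log axes at the 218 regions with an H3K4me3 peak in all 3 conditions, untreated on the x axis and MM-401 (left) or 4-OHT (right) on the y axis, with a line at equal values. Most points follow the line, and the 2 points with the highest ratios in the MM-401 panel are Hspa8 (35.4 to 189) and the Meg3 start (7.60 to 37.7), followed by 1810010H24Rik (1.31 to 5.18).

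Among the points that stood far from equality are these, named after their values were seen. At Hspa8, a constitutive heat shock protein gene, H3K4me3 was 35.4 tags per M in untreated cells, 189 after MM-401 and 39.8 after 4-OHT, and the width of the peaks was 2567, 7652 and 2582 bp. The higher MM-401 value there thus came with a wider peak. At Syt2, a synaptotagmin, it was 5.34, 1.55 and 3.03 tags per M. At a region in 1810010H24Rik it was 1.31, 5.18 and 1.59, and at one nearest Qdpr, which had the highest ratio after 4-OHT, it was 1.15, 2.17 and 3.26. At a region in Hs3st3a1, a heparan sulfate sulfotransferase gene, it was 0.831, 2.40 and 2.12.

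The single region with H3K4me3 in both treatments and not in untreated cells lay just upstream of Meg3, at chr12:109538502-109539532, and a second region, chr12:109540713-109542981, held the Meg3 start. The nearest protein-coding gene is Rtl1, and both belong to the imprinted cluster in which Meg3 is expressed from the maternal chromosome and Rtl1 from the paternal one. Meg3 is no protein-coding gene and is named after its values were seen. The MM-401 H3K4me1 peak that met the second region ended at 109540817, before the Meg3 start at 109540996. At the start itself an H3K4me1 peak was thus called after 4-OHT only. The H3K4me3 peak over the start stood in the untreated library at 7.60 tags per M (interval 6.56 to 8.75), with MM-401 at 37.7 (34.4 to 41.2) and with 4-OHT at 21.1 (19.3 to 22.9). Its width was 2768 bp, 3933 bp and 4060 bp, and its wider left side reached the upstream region by 3 bp with MM-401 and by 316 bp with 4-OHT. The H3K4me2 peak over the start was 6.99 tags per M, 18.9 and 11.3. In each mark the intervals of the 3 libraries did not overlap.

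A second H3K4me3 peak, upstream of Meg3, was also lowest in untreated cells. Untreated, it began at 109527627 and held 1.74 tags per M (interval 1.27 to 2.34). With MM-401 it began at 109527159 and held 10.3 (8.61 to 12.2), and with 4-OHT it began at 109527325 and held 9.69. H3K4me2 there was 3.45, 13.8 and 10.6 tags per M. Another peak, downstream of the start at 109545698 in the untreated H3K4me3 list, did not follow this order. It held 1.5 tags per M of H3K4me3 untreated, had no peak with MM-401 and held 1.29 with 4-OHT, and H3K4me2 there was 2.77, 1.92 and 2.14. H3K4me1 at the upstream region was 3.42 tags per M after MM-401, in a peak of 2241 bp, and 0.810 after 4-OHT, in a peak of 1031 bp. The control region of this imprinted cluster is known to lie between Dlk1 and Meg3. The maternal and paternal chromosomes were not told apart here.

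The other regions with H3K4me2 in both treatments and not in untreated cells had low levels. Over the 25, H3K4me2 ranged from 1.16 to 18.9 tags per M after MM-401 with a median of 1.77, and from 0.679 to 11.3 after 4-OHT with a median of 1.42. Of these, 14 lay between genes, 10 in gene bodies and 1 at a start. In the order of the score of the 4-OHT H3K4me2 peak, Meg3 was followed by a region 59102 bp from the start of Maf, a leucine zipper transcription factor, with 2.62 tags per M after MM-401 and 1.56 after 4-OHT. A region of 2753 bp in the body of Srgap2, a regulator of neuronal migration, had 1.87 and 2.00. A region in Smad3, the signal carrier of Nodal and TGF-beta, had 2.22 and 1.46. A region in Eya4, a transcriptional coactivator gene, had 1.46 and 1.42. A region nearest Gm10323 was unlike these, with 8.58 after MM-401 and 1.19 after 4-OHT, and H3K4me3 of 15.2 tags per M after MM-401 with no H3K4me3 peak in the others.

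Of the regions, 6 were 10 kb or wider (0.325%; all 4-OHT peaks 2.83%). They lay at Ahdc1 (chr4:133039754-133096135), Esrrb (chr12:86460889-86499682), Ccdc88c (chr12:100991969-101028883), Ap4s1 (chr12:51658832-51690999), Uri1 (chr7:37991443-38019021) and Pspc1. All except Pspc1 carried H3K4me2 and H3K4me3 peaks in every condition, untreated cells included. These 5 were thus long blocks of H3K4 methylation in which the untreated H3K4me1 list had no peak. Both marks are usual at that width. Among all 4-OHT H3K4me1 peaks of 10 kb or wider, H3K4me2 was at 98.8% untreated, 97.1% after MM-401 and 99.9% after 4-OHT. H3K4me3 was at 89.4%, 79.3% and 95.3% of them.

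At Esrrb, a nuclear receptor of naive pluripotency, the region covered 38794 bp of the gene body, 39245 bp from the listed start. Untreated H3K4me2 there was 216 tags per M (interval 212 to 221), that with MM-401 328 (320 to 336) and that with 4-OHT 276 (271 to 280). H3K4me3 was 217, 371 and 350 tags per M. H3K4me1 was 180 tags per M after MM-401 and 153 after 4-OHT. Untreated H3K4me1 peaks lay on both sides of the region, the nearer at 473 bp with 88.3 tags per M over 23657 bp. The 4-OHT peak held 9449 tags but had a score of 170, while its narrower neighbour with 5564 tags had 2961.

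At Ccdc88c, which encodes the Wnt regulator Daple, the region covered 36915 bp and held the miRNA gene Mir1190. H3K4me2 was 117 tags per M in untreated cells, 150 after MM-401 and 150 after 4-OHT, and H3K4me3 was 84.6, 77.2 and 116. A neighbouring region of 6764 bp in the same gene also met the rule, so the 2 are not independent. At Ahdc1, which encodes an AT-hook protein, H3K4me2 was 147, 246 and 222 tags per M and H3K4me3 was 109, 187 and 202. At Ap4s1, which encodes a subunit of the adaptor complex AP-4, H3K4me2 was 85.9, 80.2 and 125 and H3K4me3 was 124, 140 and 145. At Uri1, a prefoldin-like protein gene, H3K4me2 was 89.4, 102 and 113 and H3K4me3 was 82.2, 106 and 104. The score of the MM-401 peak at Uri1 was 97.7 with 1917 tags.

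**Figure D4:**
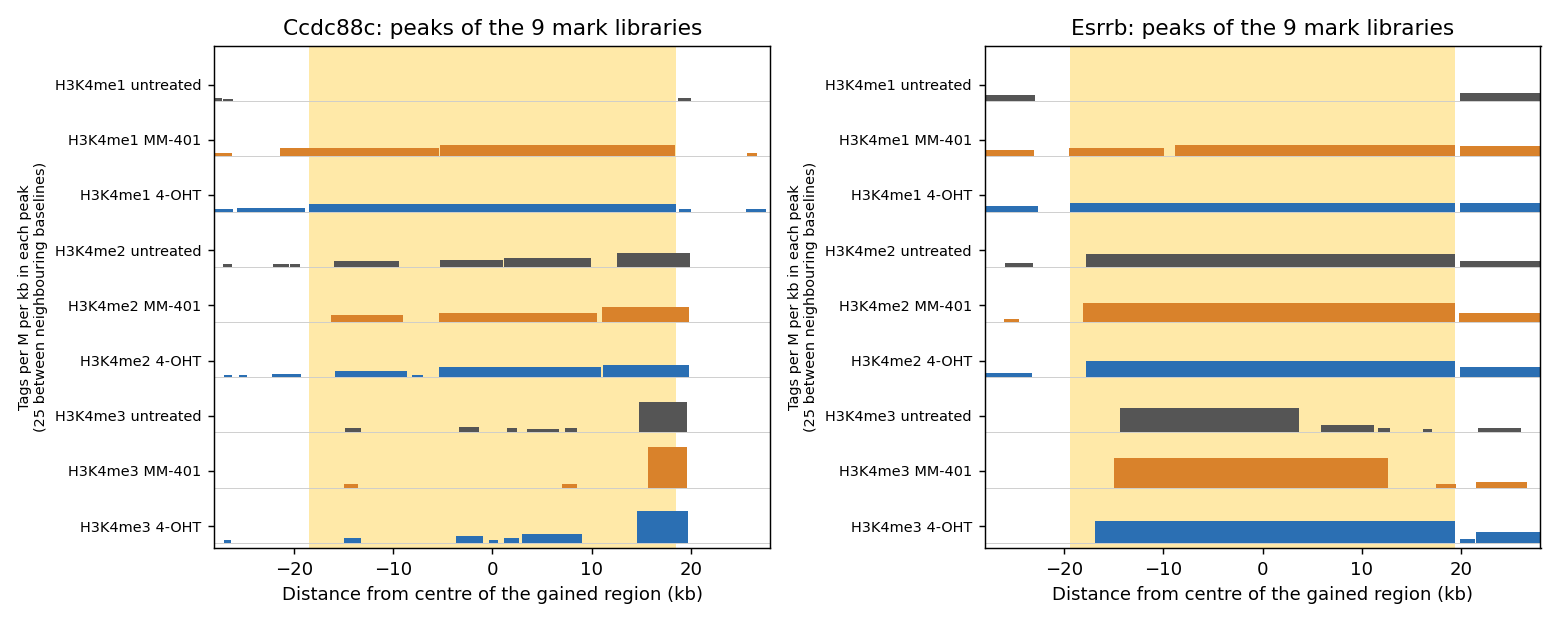
Peaks of the 9 mark libraries at Ccdc88c (left) and Esrrb (right), drawn against the distance from the centre of the gained region in kb (shaded), with bar height as tags per M per kb within each peak. H3K4me2 peaks fill much of the shaded stretch and H3K4me3 peaks part of it in all 3 conditions, while the untreated H3K4me1 row is empty there.

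Wide H3K4me1 peaks were not rare in the untreated list, which held 1859 of 10 kb or wider, against 1556 after MM-401 and 3297 after 4-OHT. Low scores among wide peaks occurred in each list: 111, 241 and 324 of these had a score under 500. Whether the empty untreated stretches follow from the scoring of wide peaks was not tested. The region at Pspc1, a paraspeckle protein gene, differed from the other 5. It spanned 16416 bp in the 4-OHT list but was met by an MM-401 peak of only 1427 bp, and its only other mark was H3K4me2 after 4-OHT, with 10.4 tags per M.

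The regions with the highest scores that were narrower than 10 kb all lay in gene bodies. There were 12 among the 15 highest, from 2138 to 6798 bp wide. H3K4me2 was found after 4-OHT at 11 of them, in untreated cells at 2 and after MM-401 at 0, and H3K4me3 at 1, after 4-OHT. Over all 4-OHT H3K4me1 peaks H3K4me2 was at 68.7%, 62.8% and 47.3% in that order, and H3K4me3 after 4-OHT at 40.3%. The 12 were picked by their score in the 4-OHT H3K4me1 list, so the choice itself rests on the 4-OHT cells. At 9 of the 12 H3K4me2 was present after 4-OHT only, with 1.13 to 3.42 tags per M (all regions 11.8%, all peaks 7.84%). At Cdh13, which encodes T-cadherin, a 4-OHT peak of 4501 bp held 9.08 tags per M of H3K4me1, its MM-401 partner of 2032 bp held 3.78, and H3K4me2 after 4-OHT was 2.28. At Nf1, which encodes the Ras regulator neurofibromin, H3K4me1 was 5.81 tags per M after 4-OHT and 3.83 after MM-401, with H3K4me2 of 2.12 after 4-OHT. At Calu, the gene of the calcium-binding protein calumenin, the values were 10.1, 2.30 and 3.42. At Mapk14, which encodes the kinase p38 alpha, they were 7.19, 1.58 and 1.13. Eif2s1, the gene of a translation initiation factor subunit, had 9.44 tags per M of H3K4me1 after 4-OHT and no H3K4me2 peak in any condition. Others of the 12 lay in Ccdc88c, Tax1bp1, Ccl6, Sema6d and Mga. In most of these the MM-401 partner covered only part of a wider 4-OHT peak, 970 bp of 4722 bp at Mapk14 and 1413 bp of 6798 bp at Calu.

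H3K4me2 after 4-OHT differed between classes of width without a steady order. It was found at 42.9% of 168 regions under 1 kb, at 33.0% of 1390 from 1 to 2 kb, at 44.8% of 261 from 2 to 4 kb and at 12 of 19 from 4 to 10 kb. After MM-401 these values were 31.0%, 19.3%, 16.1% and 0 of 19, which by the limit of 3 counts allows a share of up to 15.8%. Over all 4-OHT peaks the shares rose with width, from 35.6% to 50.3%, 85.2% and 97.9% after 4-OHT. After MM-401 they rose from 20.2% to 27.5%, 59.8% and 85.4%. Peaks gained after 4-OHT only had 32.9%, 25.2%, 24.5% and 42.6% after 4-OHT, also without a steady order. From 4 to 10 kb the treated libraries differed most, while of the 6 regions of 10 kb or wider 6 had H3K4me2 after 4-OHT and 5 after MM-401. The class of 4 to 10 kb holds under 20 regions. Of the 122 peaks of that class gained after 4-OHT only, 52 had H3K4me2 after 4-OHT and 0 after MM-401, so the difference is shared with them.

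Mll1 peaks of untreated cells met 15 regions, 0.813% (0.456% to 1.34%), against 2.35% of all 4-OHT H3K4me1 peaks and 0.390% of those gained after 4-OHT only. The 10 with the highest Mll1 score had scores of 56.7 to 81.6 from 11 to 15 tags, near the lowest score the caller allows. Of these 10, 7 had H3K4me3 in each condition, against 11.8% of all regions and 27.7% of all 4-OHT peaks. The share among all 4-OHT peaks that meet an Mll1 peak was not counted, so no trait of these regions can be read from it. At M6pr, the gene of a mannose 6-phosphate receptor, the region held the start, and H3K4me3 was 69.1 tags per M in untreated cells, 91.1 after MM-401 and 78.6 after 4-OHT. At Vamp1, a vesicle fusion protein gene, the region also held the start, and H3K4me3 was 38.9, 45.4 and 36.6. A region 2834 bp from Tmem17 had neither H3K4me2 nor H3K4me3 in any condition.

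The regions were spread over the genome. They were nearest to 1564 protein-coding genes, of which 213 were nearest to at least 2 regions and 54 to at least 3. Gm29975 had the most, with 6 regions among 23 4-OHT peaks, followed by Zfp608 with 5 among 45. Ralyl, Gadd45g, A430005L14Rik, Trdn, Gm11780, Csl, Sox9 and Unc5d had 4 each. By chromosome the share of 4-OHT peaks that were such regions ran from 1.28% on chromosome 5 to 2.05% on chromosome 18. Regions near 1 gene may share an underlying block and are not separate observations. Besides Mir1190, a second miRNA gene, Mir6362 near Dgkg, lay in a region.

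Among 18 lists of genes of stem cell state, lineage and signalling, genes with a region at the start included Tbx5 and Tcf7l2, while 0.798% of all 20665 protein-coding genes had one. A region at the start or in the body was found for 4.54% of all genes. At Tbx5, a heart and limb T-box factor, H3K4me3 was 2.14 tags per M in untreated cells, 2.86 after MM-401 and 2.95 after 4-OHT. The intervals of these values overlapped.

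None of the genes in the lists of core pluripotency (13 genes), formative and primed pluripotency (12), trophectoderm (12), germline (10), fibroblast (14), FGF and MAPK signalling (15) and H3K4 methylation machinery (15) had a region at the start or in the body. The genes of each of these lists span little sequence, from 0.103 Mb for core pluripotency to 0.805 Mb for the methylation machinery. All genes held 1.02 regions per Mb, so a count of 0 in such lists says little. In the naive pluripotency list 2 of 15 genes had one, Esrrb and Nr5a2, and at Nr5a2 the region was 909 bp wide with 0.777 tags per M of H3K4me1 after 4-OHT and no H3K4me2 or H3K4me3 peak. In the Nodal and BMP list 4 of 20 genes had a region in the body: Smad3 and the receptors Bmpr1a, Bmpr2 and Tgfbr2. Their H3K4me1 ranged from 1.65 to 3.42 tags per M after 4-OHT and from 2.16 to 3.60 after MM-401, and H3K4me2 was found only at the Smad3 region, under both treatments. Single genes with a region in the body were Dab2 (primitive endoderm), Nkx2-2 (neural), Ptprc (blood), Hoxc6 (Hox clusters), Rarb (retinoid) and Tbp (housekeeping). At Nkx2-2, a neural homeobox gene, H3K4me3 was 21.6 tags per M in untreated cells, 16.9 after MM-401 and 21.9 after 4-OHT.

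In the list of cell adhesion and axon guidance genes, 14 of 30 had a region, among them Cdh13, Ncam1, Robo1, Sema3a, Ntn1 and Ptprd. These genes are long, with a median of 585 kb against 17.5 kb for all, and per Mb of gene they held 0.630 regions against 1.02 for all genes. Among the 4-OHT H3K4me1 peaks in them 3.83% were such regions, against 1.36% for all genes. Genes of 200 kb or longer held 0.767 regions per Mb, and 1.98% of the 4-OHT peaks in them were such regions. The 17 regions in the listed genes had 0.988 to 9.08 tags per M of H3K4me1 after 4-OHT and 1.26 to 3.78 after MM-401. Of these, 10 exceeded the median of 1.65 over all regions after 4-OHT. In all, 2 of the 17, among them the region in Epha5, had H3K4me3 in each condition, against 11.8% of all regions. At 4 of the 17 H3K4me2 was found after 4-OHT, at 2 after MM-401 and at 2 in untreated cells. Over all regions these shares were 36.1%, 19.9% and 23.9%.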

How the data were processed

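Of the study's 14 libraries, 10 have a peak list and 4 are inputs, used only as controls of the peak calls. Per the file headers the authors called peaks in each library against 1 input with MACS 1.4.2 on libraries without duplicates, at a p cutoff of 1e-05. The submitters' processing notes name Bowtie2, SAMtools 1.5, MACS2 and mm10; the headers were followed for the caller, and other steps are not given in the sources used here. The deposited counts are raw tags in each peak. The authors' score is −10 log10 of the caller's p, the deposited ratio is fold enrichment over background, the deposited percent is the caller's false discovery rate, and one further deposited value is the peak width. Tags were divided by the filtered tags of the headers in M.

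Overlaps of at least 1 bp were computed in Python 3.11.15 with pandas 2.3.3, checked against bedtools 2.31.1 and tested on simulated lists. Gene and start positions came from RefSeq tables of GRCm38.p6. The planned definition of a start was narrowed to the listed start site for the 16457 genes that have one. Depth was 12.9 M to 61.8 M filtered tags in the mark libraries and 30.1 M for Mll1. With 1 library per group there was no test, and intervals (95%, Clopper-Pearson for shares, Poisson for tags) cover counting error only.

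The regions and gene lists were chosen with earlier results of these data known. The named genes are those nearest the 15 regions of highest score, the 10 highest with H3K4me2 (and H3K4me3) in both treatments and not in untreated cells, the 10 genes with most regions, list genes with a region at the start or in the body, the 10 regions of highest Mll1 score, and the edges of the rule; others are said to be named after their values were seen. Some genes that this rule names are not reported here. Alternatives changed the overlap, score, list length, window and gene set.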

Additional observations from a re-analysis of the deposited data

Results flagged for a closer look

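On the X chromosome, which the choice of regions left out, 115 of 2774 4-OHT H3K4me1 peaks (4.15%) overlapped no untreated peak and overlapped an MM-401 peak, against 1.58% on the autosomes. This was singled out because it is a signal in data outside the main measurement. In all, 870 of the 2774 X peaks overlapped no untreated peak. The difference has no replicate check.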

How the results depend on the processing

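Of 99 values recomputed under 12 settings, 55 stayed within their interval or within 1.5 times the count, and 44 moved; the causes were not tested. The order of untreated and MM-401 cells turned under 2 settings: for both marks with mark lists of equal length, and for H3K4me2 with treated peaks of a score of at least 100. With 3 H3K4me1 lists of 80675 peaks each there were 5319 regions, with a median of 157 tags and 1762 bp, 18.7% at starts, 44.0% in bodies and 37.3% between genes; in untreated, MM-401 and 4-OHT cells H3K4me2 was at 47.8%, 41.1% and 66.7% and H3K4me3 at 34.6%, 27.1% and 35.7%. With treated peaks of a score of at least 100 there were 243 regions, with 131 tags and 1711 bp, H3K4me2 at 23.9% untreated, 28.8% after MM-401 and 45.3% after 4-OHT, and H3K4me3 at 18.1% in untreated cells and 15.2% after MM-401. When an untreated peak within 1 kb also removed a region, 4.52% were at starts and 47.9% between genes, H3K4me2 was at 21.1% untreated and 17.0% after MM-401, and H3K4me3 at 12.5%, 8.18% and 13.8%. With mark peaks within 1 kb, H3K4me2 was at 32.7%, 27.5% and 45.5% and H3K4me3 at 19.5%, 15.1% and 20.9%. With mark peaks of a score of at least 100 these were 19.7%, 14.4% and 26.5%, and 13.4%, 10.6% and 14.4%. With mark lists of equal length H3K4me2 was at 16.1% untreated, 19.9% after MM-401 and 17.9% after 4-OHT, and H3K4me3 at 11.0%, 12.1% and 11.3%. A window of 5 kb gave 17.6% at starts and all annotated genes 15.2%. At least 50% cover left 1651 regions, and partners without an untreated peak 1698. No paired analysis was possible because each group holds 1 library and no result comes from a test. Depth limits all shares: a region without a peak may carry tags below the threshold, more so in the shallower MM-401 libraries.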
